A study of Mus musculus with 39 samples.

Results

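The genes described here are the neuregulin ErbB axis and the myelination receptor Adgrg6: Nrg1, Erbb2, Erbb3, Rnf41, Adam17, Bace1 and Adgrg6, which are 7 of the 55573 genes counted. They were taken by name, under a rule that uses no measured value, but were chosen with earlier results of these data known. All 7 passed the filter on low counts that 18442 genes passed. The study asked what leptin receptor signaling in Schwann cells does for peripheral nerve repair, by RNA sequencing of distal sciatic nerve endoneurium after a crush. Of 22 C57BL/6 mice of both sexes, aged 2 to 4 months, 17 gave an injured and a healthy contralateral nerve and 5 gave 1 nerve. The 39 libraries fall into 8 groups.

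Neuregulin 1 is a growth factor of the EGF family that binds ERBB3 on Schwann cells. ERBB3 has little kinase activity of its own and signals together with ERBB2, which has no known ligand, through the PI3K and MAP kinase pathways. Membrane-bound neuregulin on axons sets myelin thickness, and BACE1 and ADAM17 are proteases that cleave neuregulin 1, BACE1 being known to promote myelination and ADAM17 to restrain it. RNF41 is a ubiquitin ligase known to regulate ERBB3 levels and the trafficking of cytokine receptors including the leptin receptor, which is why the study also measured its mRNA. ADGRG6 (GPR126) is an adhesion G protein-coupled receptor that raises cyclic AMP in Schwann cells and is required for myelination to start. Axonal neuregulin 1 is translated from mRNA in neuronal cell bodies, which lie outside the nerve segment sequenced here.

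Lepr-ctrl mice carried floxed Lepr alleles without Cre (Leprfl/fl), and Lepr-cKO mice carried the same alleles with Dhh-Cre (Leprfl/fl::Dhh-Cre), a Cre expressed from the Desert hedgehog promoter in the Schwann cell lineage from embryonic stages. Nerves were taken at 2 or 4 weeks post crush (wpc) from different mice, so time and cohort cannot be told apart. At 2 wpc there were 5 healthy and 5 injured Lepr-ctrl nerves and 6 healthy and 5 injured Lepr-cKO nerves, and at 4 wpc 5 healthy and 4 injured Lepr-ctrl nerves and 5 healthy and 4 injured Lepr-cKO nerves. Libraries held 10905806 to 45016322 counts, with the injured Lepr-ctrl nerves at 4 wpc lowest at 10905806 to 17640587. Levels are given in CPM (counts divided by the TMM-scaled library size in units of 1e6). The deletion removes exon 1 of Lepr and, per the study, leaves a truncated receptor expressed, so the count over the whole gene is no check of the genotype labels. Lepr stood at 44.5 ± 21.1 CPM (SD, n = 4) in injured Lepr-ctrl and 30.5 ± 5.23 CPM (SD, n = 4) in injured Lepr-cKO nerves at 4 wpc (adjusted p = 0.362, edgeR), and the other way at 2 wpc, at 53.2 ± 17.7 CPM (SD, n = 5) and 69.7 ± 33.0 CPM (SD, n = 5) (adjusted p = 0.939). In healthy nerves the log2 difference of Lepr-cKO over Lepr-ctrl was 0.12 ± 0.29 at 2 wpc and 0.33 ± 0.30 at 4 wpc (SE). Neither passed. By qPCR, the study reported less Lepr mRNA in injured Lepr-cKO than in injured Lepr-ctrl endoneurium at the earlier time. The counts of injured nerves at 2 wpc did not show such a reduction, with a log2 difference of 0.39 ± 0.29 (SE). These are unlike measures: the study elsewhere described its Lepr qPCR as isoform-specific, while the counts cover the whole gene. The reason for the difference was not tested. All 6 Schwann cell markers examined, Sox10 and S100b among them, were tested, and their summed level was 4244 to 4686 CPM in the healthy Lepr-ctrl nerves at 2 wpc. On 10 skeletal muscle markers 1 library stood apart: the injured Lepr-cKO nerve SLRKO2wpc126i at 2 wpc, named as in the labels, had a sum of 35597 CPM, against at most 28.2 in the others. The sum of 5 adipocyte markers varied widely within groups. It was at most 0.626 CPM in healthy Lepr-ctrl nerves at either time, and ran from 0.218 to 154 in healthy Lepr-cKO nerves at 2 wpc, from 0.858 to 102 in those at 4 wpc, and in injured Lepr-cKO nerves to 1297 in SLRKO2wpc126i at 2 wpc and to 262 at 4 wpc. Each comparison was also computed without each of its libraries.

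Nrg1 (ENSMUSG00000062991, chr8:31814551-32884029, minus strand) is a multi-exon gene of which only 0 to 133 counts per library were recorded. Erbb2 (ENSMUSG00000062312, chr11:98412470-98437716, plus strand), Erbb3 (ENSMUSG00000018166, chr10:128567523-128589652, minus strand) and Rnf41 (ENSMUSG00000025373, chr10:128411657-128441441, plus strand) each had at least 475 counts in every library. Adam17 (ENSMUSG00000052593, chr12:21323509-21373632, minus strand) had at least 706 and Adgrg6 (ENSMUSG00000039116, chr10:14402583-14545659, minus strand) at least 409, while Bace1 (ENSMUSG00000032086, chr9:45838580-45864399, plus strand) had 188 to 3095. Coordinates are of GRCm38. The library kit does not mark strand, so reads in exons shared with a gene on the other strand cannot be assigned: this concerns 975 bases of Bace1 shared with Rnf214 and 951 with Gm49338, 311 of Adam17 shared with Iah1, 482 of Nrg1 with Gm26578 and 441 of Adgrg6 with Gm46212.

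RefSeq promoters (GRCm38.p6) matched Erbb2, Rnf41, Adam17 and Adgrg6. Adgrg6 is not shown, because annotated exons cover too much of the bases before its start. Of the 250 bases before the start, the stretch outside every annotated exon is shown for Rnf41, which was lower in all 4 injured groups, and for Erbb2 and Adam17, which were higher at 2 wpc, written 5′ to 3′ on the strand of the gene with motif matches in capitals (chr11:98412234-98412469 plus strand, chr10:128411493-128411615 plus strand, chr12:21373633-21373764 minus strand). 
Erbb2: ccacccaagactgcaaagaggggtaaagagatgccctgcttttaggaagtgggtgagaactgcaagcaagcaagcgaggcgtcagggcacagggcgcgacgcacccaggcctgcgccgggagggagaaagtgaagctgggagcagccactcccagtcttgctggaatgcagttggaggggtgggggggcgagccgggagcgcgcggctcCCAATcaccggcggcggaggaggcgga
Rnf41: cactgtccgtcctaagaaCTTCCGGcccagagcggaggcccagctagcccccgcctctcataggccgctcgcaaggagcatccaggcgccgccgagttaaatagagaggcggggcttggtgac
Adam17: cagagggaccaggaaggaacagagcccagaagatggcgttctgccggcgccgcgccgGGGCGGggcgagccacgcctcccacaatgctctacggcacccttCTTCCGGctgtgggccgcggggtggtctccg
Motifs were searched on both strands, and none of the matches overlapped another. Distances are to the RefSeq start, which for Erbb2 and Rnf41 is not the gene start in the coordinates given above. The Erbb2 stretch ended 14 bases before the RefSeq start, and those of Rnf41 and Adam17 ended at it. Erbb2 held a CCAAT box, spelled by its name, 41 bases before the start, as did 32.7% of the 32851 promoters in the same 236-base window. Rnf41 held the ETS motif CCGGAAG on the other strand, 105 bases before the start, as did 5.07% of promoters in the same window. Adam17 held the ETS motif on the other strand 31 bases before the start (5.24% of promoters in the same 132 bases) and the GC box GGGCGG 75 bases before it (27.4%). Searched as well were ACAAAG for SOX factors (in 15.7%, 7.98% and 8.66% of promoters in the windows of Erbb2, Rnf41 and Adam17), the AP-1 motif TGANTCA (6.5%, 3.54% and 3.75%) and the E-box CACGTG (5.52%, 3.74% and 3.91%). These letters were in none of the 3 stretches.

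Per kilobase of exon, Erbb3 was the highest of the 7 members in each of the 8 groups and Nrg1 the lowest. In healthy Lepr-ctrl nerves at 2 wpc, mean levels were 66.4 CPM per kb for Erbb3, 18.7 for Erbb2, 15.1 for Rnf41, 12.9 for Adgrg6, 12.7 for Adam17, 10.2 for Bace1 and 0.273 for Nrg1. The libraries of Erbb3, Erbb2 and Rnf41 did not overlap each other in this order, and neither did those of Bace1 and Nrg1, whereas the neighbours Rnf41 and Adgrg6, Adgrg6 and Adam17, and Adam17 and Bace1 overlapped. In injured Lepr-ctrl nerves at 2 wpc the order was Erbb3 (66.8), Erbb2 (35.6), Adam17 (16.3), Rnf41 (10.3), Adgrg6 (6.93), Bace1 (3.63) and Nrg1 (0.0952 CPM per kb). There only the neighbours Adam17 and Rnf41, and Rnf41 and Adgrg6, overlapped.

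**Figure D1:**
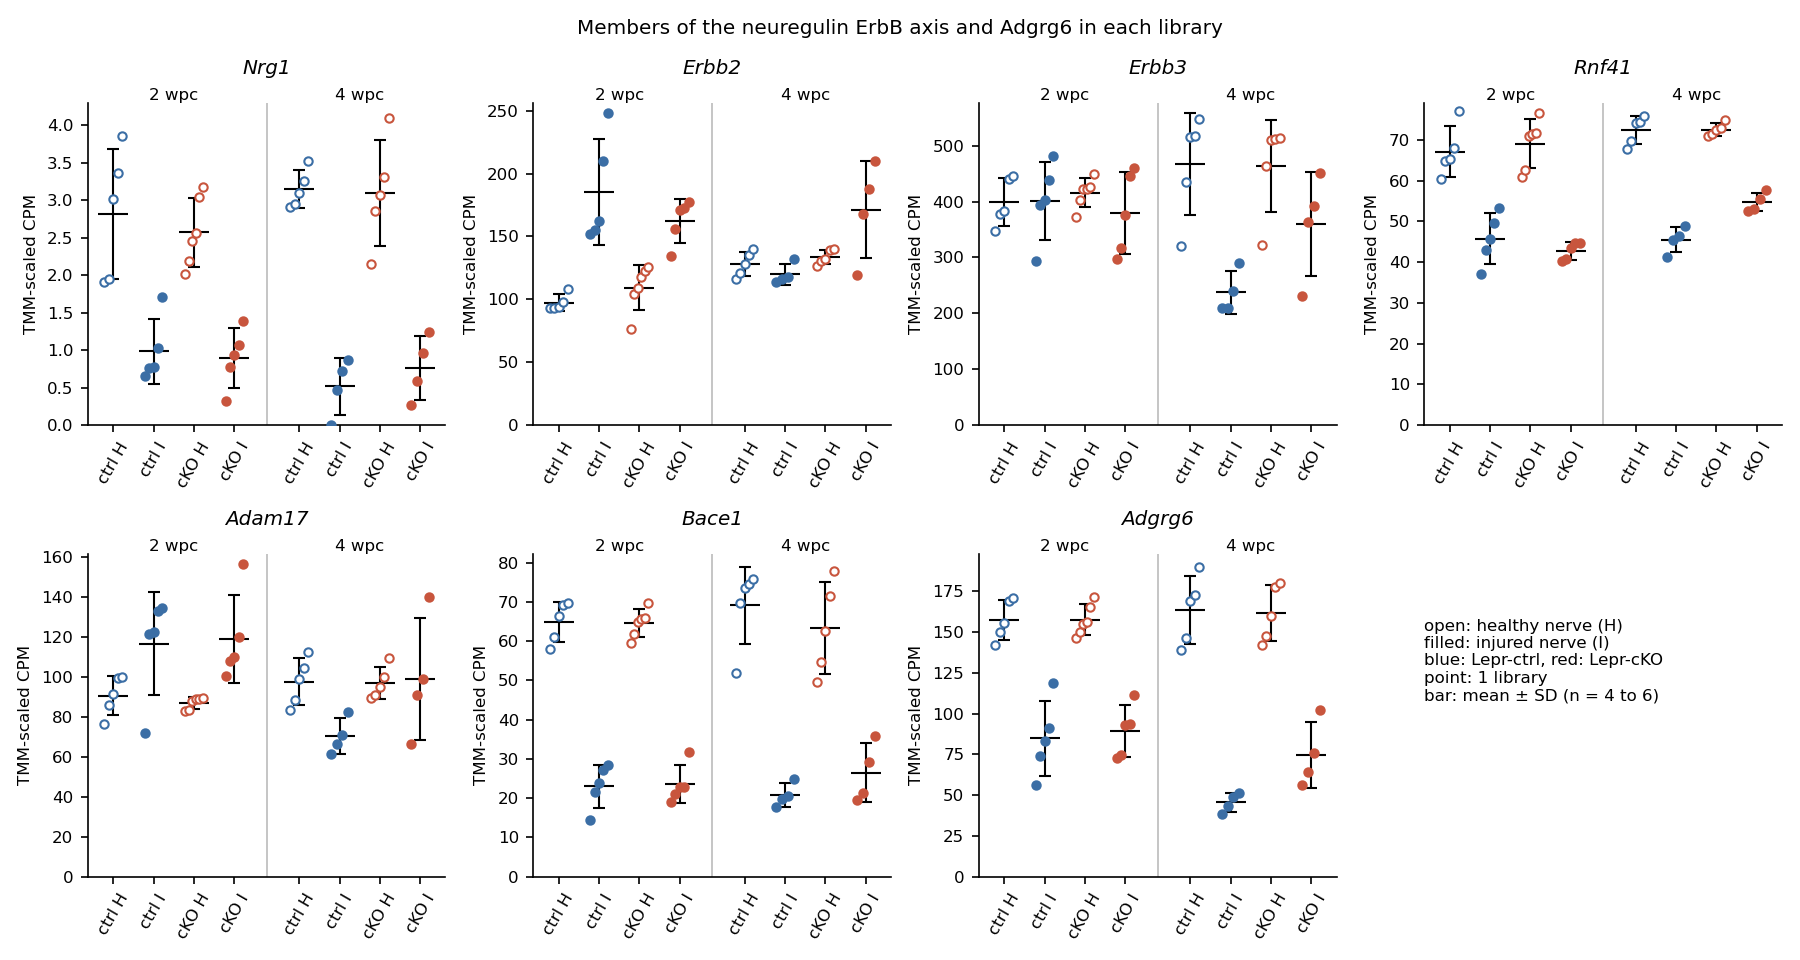
TMM-scaled CPM (y axis, linear, from 0) of the 7 members in each of the 39 libraries, by genotype (blue Lepr-ctrl, red Lepr-cKO), nerve (H and open, healthy; I and filled, injured) and weeks post crush, with bars for the mean ± SD. Every injured nerve of a group is below every healthy nerve of the same genotype and time for Nrg1, Rnf41, Bace1 and Adgrg6, while the means of Erbb2 and Adam17 are higher after injury at 2 wpc.

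The first comparison asked how each member changed in the injured nerve. Nrg1, Rnf41, Bace1 and Adgrg6 were lower in injured than in healthy nerves of both genotypes at both times. Their libraries did not overlap in any of these 16 comparisons. The share of all genes without such overlap was not counted, so the separation is not shown to be particular to these members. Erbb2 and Adam17 were higher at 2 wpc in both genotypes; at 4 wpc Adam17 was lower in Lepr-ctrl and Erbb2 higher in Lepr-cKO. Erbb3 passed the test in Lepr-ctrl at 4 wpc, where it was lower; the other 3 comparisons did not pass, and neither did the difference of its response between genotypes at 4 wpc (adjusted p = 0.396, edgeR). In Lepr-ctrl at 2 wpc, 6 of the 7 members passed an adjusted p of 0.05 (edgeR quasi-likelihood F test, Benjamini-Hochberg over all genes tested), 2 higher and 4 lower, where 33.7% of all genes were called higher and 30.2% lower. The counts were 2 higher and 4 lower in Lepr-cKO at 2 wpc (35.9% and 29.2% of all genes), 6 lower in Lepr-ctrl at 4 wpc (32.4% higher and 31.2% lower) and 1 higher and 4 lower in Lepr-cKO at 4 wpc (29.6% and 25.8%). In bulk tissue, fewer cells of a type and less RNA per cell cannot be told apart. Of the 6 Schwann cell markers 3 were called lower and 0 higher in Lepr-ctrl at 2 wpc, and 5 and 0 at 4 wpc, with sums of 1879 to 3479 CPM at 2 wpc and 1698 to 2811 at 4 wpc. In the same nerves 7 of 8 macrophage markers were higher and 1 lower at both times, with sums of 1335 to 3695 and 2149 to 4626 CPM against 195 to 328 in healthy Lepr-ctrl nerves at 2 wpc. All 5 adipocyte markers were called higher at both times, with median log2 fold changes of 8.11 and 7.54. Their sums were 0.114 to 222 CPM at 2 wpc (median 0.569) and 0 to 218 at 4 wpc (median 67.5). These ranges overlapped those of the healthy Lepr-ctrl nerves, which reached at most 0.626 CPM. In Lepr-cKO 0 of the 5 adipocyte markers passed at either time. Of 5 proliferation markers, 5 and 3 were higher in the Lepr-ctrl nerves. The part of these cells in the members' changes was not tested.

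**Figure D2:**
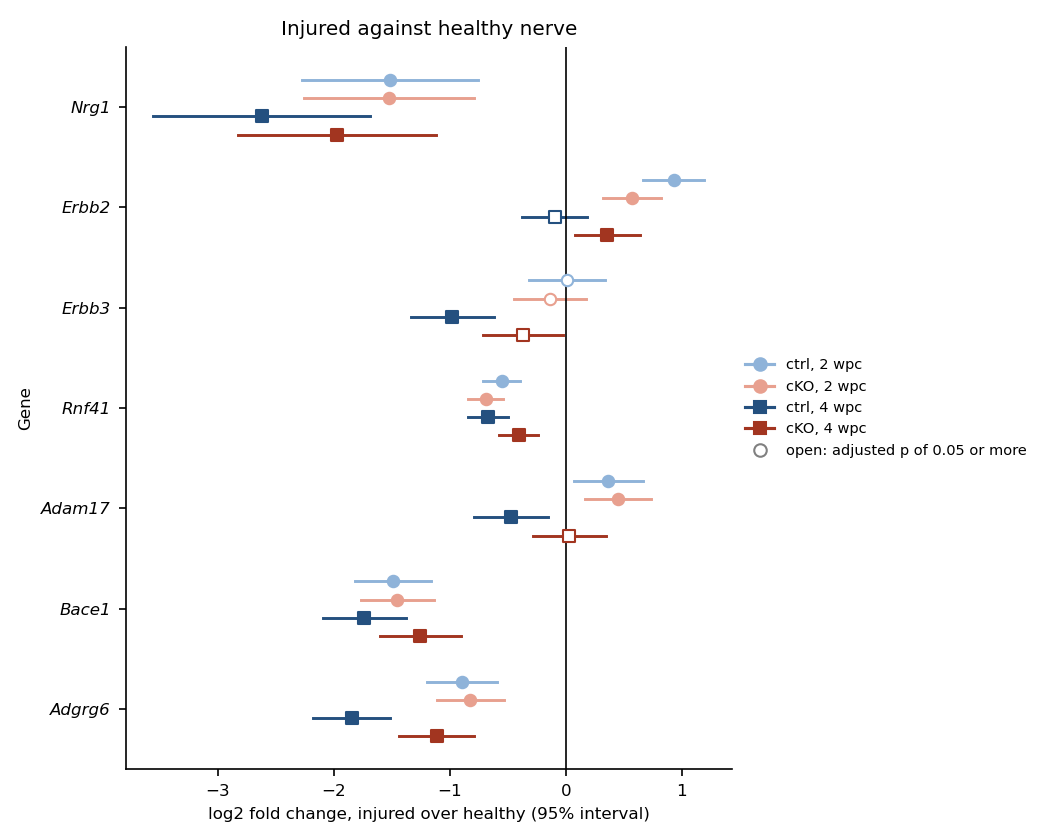
Log2 fold change of injured over healthy nerve (x axis) with its 95% interval for each member (y axis), by genotype (blue Lepr-ctrl, red Lepr-cKO) and time (circles 2 wpc, squares 4 wpc); open symbols did not pass an adjusted p of 0.05. Nrg1, Rnf41, Bace1 and Adgrg6 lie left of 0 in all 4 comparisons, and the Erbb2 value moves from 0.93 at 2 wpc to -0.10 at 4 wpc in Lepr-ctrl.

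Nrg1, the ligand, was rare in the nerve and became rarer. In Lepr-ctrl at 2 wpc the healthy nerves stood at 1.91, 1.95, 3.02, 3.36 and 3.86 CPM and the injured nerves at 0.653, 0.759, 0.769, 1.03 and 1.71 CPM. At 4 wpc the healthy Lepr-ctrl nerves stood at 2.91, 2.95, 3.11, 3.26 and 3.52 CPM and the injured ones at 0, 0.469, 0.724 and 0.87 CPM. The injured values at 4 wpc rest on 0 to 13 counts per library, and the library with 0 counts is WT-171Sni, where a count of 0 allows up to 3 counts, or 0.191 CPM, counting error only. The log2 fold change was -1.52 ± 0.37 (SE; adjusted p = 0.000638) at 2 wpc and -2.62 ± 0.46 (SE; adjusted p = 8.09e-06) at 4 wpc. In Lepr-cKO, the injured nerves stood at 0.321, 0.771, 0.932, 1.07 and 1.39 CPM at 2 wpc and at 0.273, 0.586, 0.964 and 1.25 at 4 wpc, all under the lowest healthy values of 2.02 and 2.16 CPM, with log2 fold changes of -1.52 ± 0.36 (SE; adjusted p = 0.000435) and -1.97 ± 0.42 (SE; adjusted p = 0.000174). The direction was the same in all 17 mice with both nerves.

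Erbb2, the kinase partner of the receptor, was higher in injured nerves at 2 wpc. Healthy Lepr-ctrl nerves stood at 92.8, 93.0, 94.0, 98.1 and 108 CPM and injured ones at 152, 155, 163, 209.8 and 248 CPM, so that the lowest injured nerve was above the highest healthy nerve. The log2 fold change was 0.93 ± 0.13 (SE; adjusted p = 1.62e-07). Healthy Lepr-cKO nerves ranged from 76.4 to 125.8 with a median of 114 CPM and injured ones stood at 134.9, 156, 171.3, 173.02 and 177.8, again without overlap, with a log2 fold change of 0.57 ± 0.12 (SE; adjusted p = 0.000139). At 4 wpc the groups overlapped. Healthy Lepr-ctrl nerves stood at 116, 121, 128.1, 135.4 and 139.8 CPM and injured ones at 113, 116, 118 and 132 CPM, a log2 difference of -0.10 ± 0.14 (SE; adjusted p = 0.555) whose 95% interval ran from -0.38 to 0.18. In Lepr-cKO at 4 wpc the healthy nerves stood at 127, 130.3, 132, 139 and 140.0 CPM and the injured ones at 119, 168.3, 188 and 210.3 CPM: 3 of 4 injured nerves were above every healthy one and 1 was below them all. That difference passed at 0.36 ± 0.14 (SE; adjusted p = 0.0252), and did not with the animal as a block (adjusted p = 0.0784) or without the injured nerve KO-169Sni (0.137) or KO-175Sni (0.0965) or the healthy nerve KO-175Snc (0.0502).

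Erbb3, the neuregulin-binding receptor, showed no difference at 2 wpc that passed the test. In Lepr-ctrl the healthy nerves stood at 347, 379, 384, 440.0 and 446 CPM and the injured ones at 293, 393, 403, 438 and 481 CPM, with an interval of the log2 fold change from -0.32 to 0.34. In Lepr-cKO the healthy nerves ranged from 372 to 449.9 with a median of 423 CPM and the injured ones stood at 297, 318, 375, 445 and 460.3, with an interval from -0.45 to 0.18. Both groups overlapped at this time. At 4 wpc healthy Lepr-ctrl nerves stood at 321, 434, 515, 518 and 548 CPM and injured ones at 209, 209.9, 240.3 and 291 CPM, all lower, with a log2 fold change of -0.98 ± 0.17 (SE; adjusted p = 1.05e-05). In Lepr-cKO at 4 wpc, healthy nerves stood at 322, 464, 510.1, 512 and 513 and injured ones at 230.4, 364, 392 and 451 CPM, which overlapped, with a log2 fold change of -0.37 ± 0.17 (SE; adjusted p = 0.0667). Leaving out KO-169Snc, the lowest of the healthy nerves, or KO-169Sni, the highest of the injured ones, which come from the same mouse, brought this past the threshold (adjusted p = 0.0192 and 0.0216).

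The ratio of Erbb2 to Erbb3 counts per kilobase within a library, which needs no scaling between libraries, was 0.243 to 0.331 in healthy and 0.428 to 0.602 in injured Lepr-ctrl nerves at 2 wpc. At 4 wpc it was 0.255 to 0.486 and 0.525 to 0.638. In Lepr-cKO it was 0.237 to 0.343 and 0.446 to 0.607 at 2 wpc, and 0.286 to 0.474 and 0.495 to 0.598 at 4 wpc. Injured nerves had a higher ratio than healthy nerves in every comparison, with no overlap, and Erbb3 stayed the more abundant per kilobase in every library. The ratios were chosen after the values were seen and were not tested.

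Rnf41, the ubiquitin ligase, was lower in every injured nerve. Healthy Lepr-ctrl nerves stood at 60.3, 64.7, 65.3, 68.1 and 77.1 CPM at 2 wpc and injured ones at 37.0, 43.0, 45.6, 49.6 and 53.2 CPM, a log2 fold change of -0.55 ± 0.078 (SE; adjusted p = 1.86e-07). Lepr-cKO nerves ranged from 60.9 to 76.6 with a median of 71.2 CPM when healthy and stood at 40.2, 40.7, 43.6, 44.6 and 44.7 when injured, a change of -0.69 ± 0.075 (SE; adjusted p = 9.73e-10). Its libraries were the most tightly grouped of the 7 members at 4 wpc. There, healthy Lepr-ctrl nerves stood at 67.8, 69.8, 74.1, 74.4 and 75.9 and injured ones at 41.3, 45.4, 46.4 and 48.9 CPM, a change of -0.67 ± 0.084 (SE; adjusted p = 2.16e-08). Healthy Lepr-cKO nerves stood at 71.0, 71.4, 72.4, 73.0 and 74.8 and injured ones at 52.7, 53.1, 55.6 and 57.6 CPM, a change of -0.41 ± 0.083 (SE; adjusted p = 0.000107).

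Bace1, the protease known to promote myelination, was lower in every injured nerve at both times. Healthy Lepr-ctrl nerves stood at 57.9, 61.1, 66.4, 69.2 and 69.8 CPM and injured ones at 14.5, 21.6, 23.8, 27.0 and 28.4 CPM, a log2 fold change of -1.49 ± 0.16 (SE; adjusted p = 7.43e-10). Healthy Lepr-cKO nerves ranged from 59.5 to 69.8 with a median of 65.2 CPM and injured ones stood at 19.1, 21.1, 22.9, 22.9 and 31.8, a change of -1.45 ± 0.16 (SE; adjusted p = 6.34e-10). The gap between the groups was wider than either group's spread. At 4 wpc healthy Lepr-ctrl nerves stood at 51.9, 69.8, 73.5, 74.5 and 75.7 and injured ones at 17.6, 19.8, 20.5 and 24.9 CPM, a change of -1.74 ± 0.18 (SE; adjusted p = 2.73e-10). Healthy Lepr-cKO nerves stood at 49.5, 54.6, 62.6, 71.6 and 78.0 and injured ones at 19.5, 21.3, 29.1 and 35.9 CPM, a change of -1.25 ± 0.17 (SE; adjusted p = 2.18e-07).

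Adam17, the protease known to restrain myelination, was higher at 2 wpc and lower at 4 wpc in injured Lepr-ctrl nerves. At 2 wpc healthy Lepr-ctrl nerves stood at 76.2, 85.9, 91.5, 99.3 and 99.8 CPM and injured ones at 71.8, 121, 122.5, 133 and 134 CPM: 4 of the 5 injured nerves were above every healthy one, and SLRKO2wpc144i, from a mouse that gave no healthy nerve, was below them all. The log2 fold change of 0.37 ± 0.15 (SE; adjusted p = 0.0291) did not pass without the healthy nerve SLRKO2wpc120c or SLRKO2wpc147c or the injured nerve SLRKO2wpc123i or SLRKO2wpc130i (adjusted p of 0.056 to 0.0822). In Lepr-cKO at 2 wpc the healthy nerves ranged from 83.1 to 89.4 with a median of 88.4 CPM and the injured ones stood at 100.3, 108, 110.2, 120.1 and 157 CPM, all higher, a change of 0.45 ± 0.14 (SE; adjusted p = 0.00504). At 4 wpc all injured Lepr-ctrl nerves were lower. They stood at 61.4, 66.2, 71.2 and 82.5 CPM against healthy nerves at 83.6, 88.4, 98.9, 105 and 112 CPM, a change of -0.47 ± 0.16 (SE; adjusted p = 0.00955). Injured Lepr-cKO nerves at 4 wpc stood at 66.3, 90.8, 99.1 and 139.9 CPM and healthy ones at 89.6, 90.7, 94.9, 99.9 and 109, spreading to both sides of the healthy range, with an interval of the log2 fold change from -0.28 to 0.35.

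**Figure D3:**
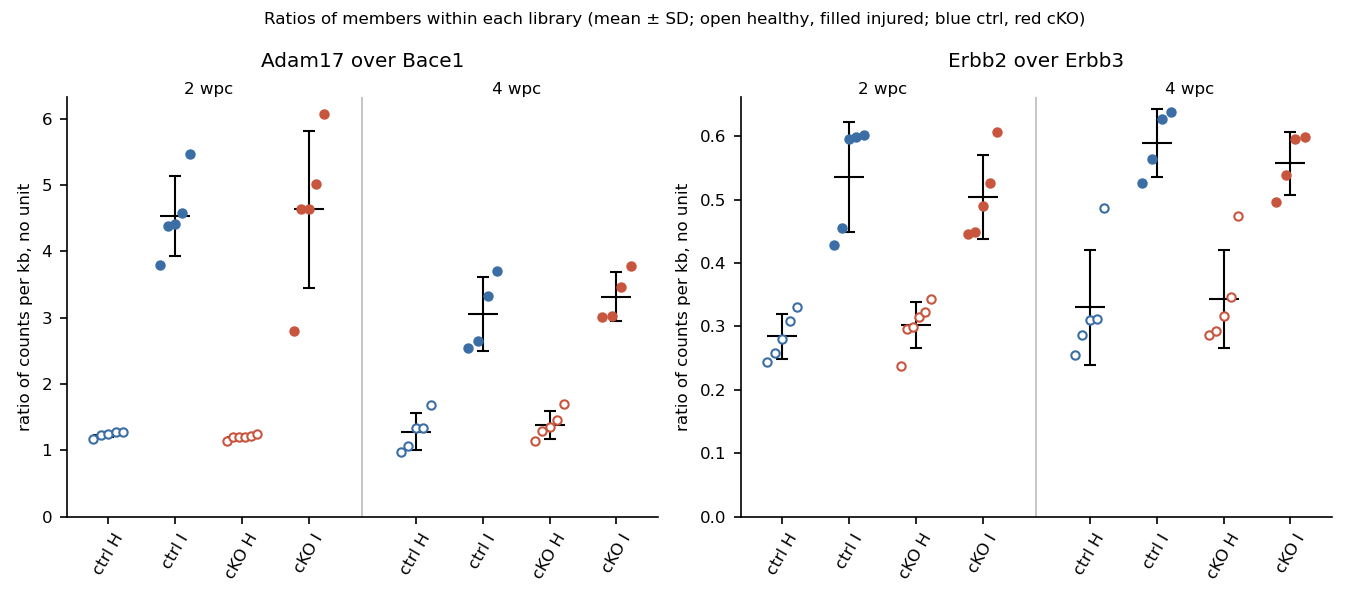
Ratio of counts per kilobase of Adam17 to Bace1 (left) and of Erbb2 to Erbb3 (right) in each library (y axis, no unit, from 0), by group as labelled on the x axis, with bars for the mean ± SD. The Adam17 to Bace1 ratio is 1.17 to 1.27 in healthy and 3.80 to 5.47 in injured Lepr-ctrl nerves at 2 wpc.

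The balance of the mRNAs of the 2 proteases differed between healthy and injured nerves. The Adam17 to Bace1 ratio per kilobase was 1.24 ± 0.043 (SD, n = 5) in healthy and 4.53 ± 0.604 (n = 5) in injured Lepr-ctrl nerves at 2 wpc, and 1.28 ± 0.278 (n = 5) and 3.06 ± 0.556 (n = 4) at 4 wpc. In Lepr-cKO it was 1.20 ± 0.034 (n = 6) and 4.63 ± 1.18 (n = 5) at 2 wpc, and 1.39 ± 0.21 (n = 5) and 3.32 ± 0.373 (n = 4) at 4 wpc. Injured and healthy libraries did not overlap in any of the 4. Within Lepr-ctrl the injured nerves at 2 wpc (3.80 to 5.47) were all above those at 4 wpc (2.53 to 3.70). The injured Lepr-cKO nerve with 35597 CPM of muscle markers had the lowest ratio of its group, 2.80.

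Adgrg6, the receptor upstream of cyclic AMP, was lower in all injured nerves and lowest in Lepr-ctrl at 4 wpc. In Lepr-ctrl at 2 wpc healthy nerves stood at 142, 150.0, 156, 168.97 and 170.7 CPM and injured ones at 56.0, 74.2, 83.5, 91.2 and 119 CPM, a log2 fold change of -0.89 ± 0.15 (SE; adjusted p = 2.92e-06). In Lepr-cKO at 2 wpc healthy nerves ranged from 146.6 to 172 with a median of 156 CPM and injured ones stood at 72.5, 74.6, 93.3, 93.6 and 111, a change of -0.82 ± 0.14 (SE; adjusted p = 5.93e-06). Mean levels in injured nerves at this time were 84.8 CPM in Lepr-ctrl and 89.1 in Lepr-cKO, and the libraries overlapped. At 4 wpc healthy Lepr-ctrl nerves stood at 139, 146.7, 169.2, 172.7 and 190.3 and injured ones at 38.4, 43.4, 48.6 and 51.6 CPM, a change of -1.85 ± 0.16 (SE; adjusted p = 1.46e-11). Healthy Lepr-cKO nerves stood at 142, 148, 160.0, 177.6 and 180.4 and injured ones at 55.9, 64.2, 76.0 and 102 CPM, a change of -1.11 ± 0.16 (SE; adjusted p = 4.62e-07).

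Leaving out the injured nerve with muscle markers kept 6 members called in Lepr-cKO at 2 wpc, in the same direction, with log2 fold changes of -0.74 for Adgrg6, -0.69 for Rnf41, -1.52 for Nrg1, -1.57 for Bace1, 0.65 for Erbb2 and 0.52 for Adam17. Its own Bace1 level of 31.8 CPM was the highest of the 5 injured nerves, and its Adgrg6 level of 72.5 and Erbb2 level of 134.9 CPM were the lowest.

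The second comparison asked whether the response at 4 wpc differed from that at 2 wpc, each against the healthy nerves of its own cohort. In Lepr-ctrl, 4 of 7 members had a lower response at 4 wpc, with differences for Erbb2 of -1.03 ± 0.19 (SE; adjusted p = 0.000853), Erbb3 of -0.99 ± 0.24 (SE; adjusted p = 0.00719), Adam17 of -0.84 ± 0.22 (SE; adjusted p = 0.012) and Adgrg6 of -0.95 ± 0.22 (SE; adjusted p = 0.00466) on the log2 scale. Of all genes 9.10% were called in either direction. Part of the Erbb2 difference lies in the healthy Lepr-ctrl nerves. These stood at 92.8 to 108 CPM at 2 wpc and at 116 to 139.8 CPM at 4 wpc, without overlap. The injured Lepr-ctrl nerves stood at 152 to 248 CPM at 2 wpc and at 113 to 132 CPM at 4 wpc. For Erbb3, Adam17 and Adgrg6 the healthy ranges of the 2 times overlapped. The mean Erbb3 level of injured Lepr-ctrl nerves was 402 ± 69.6 CPM (SD, n = 5) at 2 wpc and 237 ± 38.4 CPM (SD, n = 4) at 4 wpc. The Adam17 difference was upward in 4 of 4 mice with both nerves at 2 wpc and downward in 4 of 4 at 4 wpc. Nrg1, Rnf41 and Bace1 differed by -1.11 ± 0.58, -0.12 ± 0.11 and -0.25 ± 0.23 (SE), which did not pass. In Lepr-cKO no member passed with edgeR or DESeq2, 1 had an unadjusted p under 0.05 (Rnf41, 0.29 ± 0.11; 14.6% of all genes had one), and 2.09% of all genes were called. The difference between genotypes in this change, added after these results were seen, passed for 0 of 7 members with edgeR and for 0% of all genes; 4 members had an unadjusted p under 0.05, as did 7.84% of all genes, Erbb2 at 0.82 ± 0.26, Erbb3 at 0.75 ± 0.33, Rnf41 at 0.40 ± 0.16 and Adgrg6 at 0.66 ± 0.30 (SE). The response of all 5 proliferation markers was also lower at 4 wpc in Lepr-ctrl, where their sum was 78.1 to 191 CPM in injured nerves at 2 wpc and 8.72 to 30.5 at 4 wpc, and their part was not tested.

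The third comparison set Lepr-cKO against Lepr-ctrl. In injured nerves at 4 wpc the fitted difference was positive for all 7 members, and Adgrg6 alone passed: 74.6 ± 20.2 CPM (SD, n = 4) in Lepr-cKO against 45.5 ± 5.81 CPM (SD, n = 4) in Lepr-ctrl, with all 4 Lepr-cKO nerves above all 4 Lepr-ctrl nerves and a log2 difference of 0.71 ± 0.17 (SE; adjusted p = 0.0297). Of all genes 1.31% were called in this comparison. Rnf41 was also without overlap, at 54.7 ± 2.31 CPM (SD, n = 4) against 45.5 ± 3.15 CPM (SD, n = 4), and did not pass, at 0.27 ± 0.088 (SE; adjusted p = 0.0905). The share of all genes without overlap was not counted here either, so the separation is not shown to be particular to these members. Of all genes 19.9% had an unadjusted p under 0.05 in this comparison (edgeR). For Erbb2 the difference was 0.52 ± 0.15 (SE; adjusted p = 0.059), for Erbb3 0.60 ± 0.18 (SE; adjusted p = 0.0721) and for Adam17 0.49 ± 0.17 (SE; adjusted p = 0.0922), each with 1 Lepr-cKO nerve, KO-177Sni, inside the Lepr-ctrl range. For Bace1 the interval ran from -0.0099 to 0.72, and for Nrg1 from -0.38 to 1.63.

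These calls at 4 wpc rest on few nerves. DESeq2 called 3 members (Adgrg6, Erbb2 and Erbb3) and 2.01% of the 37867 genes it was given. Those are all genes with at least 1 count, against 18442 in the edgeR fit, so this share is not comparable with the edgeR shares. Fitted to the compared groups only, edgeR called 0 members and 0% of all genes. Without KO-177Sni it called 5 (Adgrg6, Erbb2, Erbb3, Rnf41 and Adam17) and 12.5% of all genes. The Adgrg6 call was lost without the Lepr-ctrl nerve WT-170Sni, WT-171Sni or WT-178Sni or the Lepr-cKO nerve KO-169Sni or KO-176Sni, at log2 differences of 0.52 to 0.75 and adjusted p of 0.0523 to 0.174. Schwann cell marker sums in the same nerves were 1698, 2248, 2377 and 2811 CPM in Lepr-ctrl and 1728, 3270, 3661 and 4630 in Lepr-cKO, where KO-177Sni was lowest, and 0 of the 6 markers was called with edgeR, with a median log2 difference of 0.48. Macrophage marker sums were 2149 to 4626 CPM in Lepr-ctrl and 1446 to 2431 in Lepr-cKO, with 0 of 8 markers called; the part of either in the difference was not tested.

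**Figure D4:**
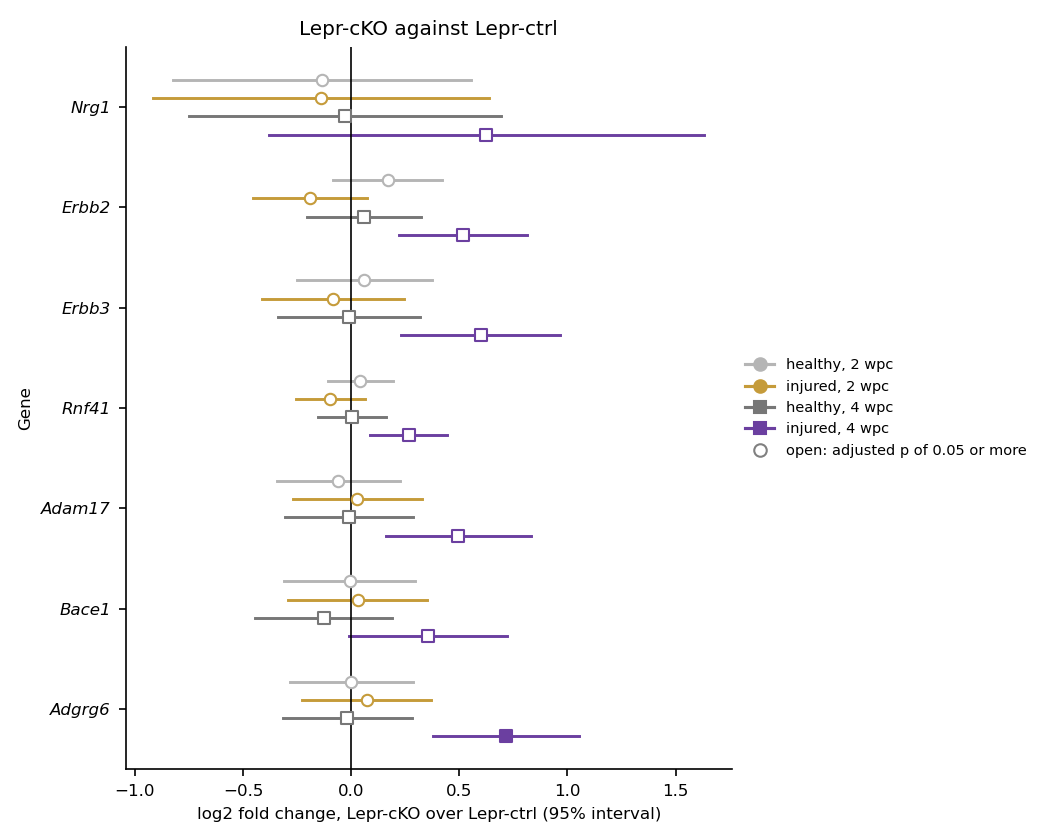
Log2 fold change of Lepr-cKO over Lepr-ctrl (x axis) with its 95% interval for each member (y axis), in healthy (grey) and injured nerves (ochre at 2 wpc, purple at 4 wpc); filled symbols passed an adjusted p of 0.05. Only Adgrg6 in injured nerves at 4 wpc is filled, and all 7 purple squares lie right of 0.

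In injured nerves at 2 wpc 0 of 7 members passed with edgeR or DESeq2, and 0 had an unadjusted p under 0.05, where 0.580% of all genes were called. The intervals of the log2 difference ran from -0.45 to 0.072 for Erbb2, -0.41 to 0.24 for Erbb3, -0.25 to 0.062 for Rnf41 and -0.23 to 0.37 for Adgrg6. The counts were also 0 by each of these measures in healthy nerves at 2 wpc (0.0108% of all genes) and at 4 wpc (0.00542%), and the largest of these differences was Erbb2 at 2 wpc, 0.17 ± 0.12 (SE). The test of whether the injury response itself differed between genotypes called 0 members and 0% of all genes at either time. At 4 wpc 5 members had an unadjusted p under 0.05 in that test, as did 10.9% of all genes, all with a higher value in Lepr-cKO (Adgrg6 0.73 ± 0.22, unadjusted p = 0.00217 and adjusted p = 0.384, edgeR), and DESeq2 called 0; at 2 wpc 0 members did.

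The other genes of the pathway were taken from a list of 96, of which 93 were tested; Nrg3, Areg and Ereg had at most 3 counts in any library. In injured Lepr-ctrl nerves 19 were higher and 47 lower at 2 wpc, where 33.7% and 30.2% of all genes were. At 4 wpc 13 were higher and 46 lower, against 32.4% and 31.2%. The median log2 fold change of the list was -0.39 and -0.37, against 0.078 and 0.024 over all genes. In Lepr-cKO 19 were higher and 44 lower at 2 wpc, where 35.9% and 29.2% of all genes were. At 4 wpc 15 were higher and 42 lower, against 29.6% and 25.8%. The response at 4 wpc differed from that at 2 wpc for 18 listed genes in Lepr-ctrl, 6 higher and 12 lower, where 9.10% of all genes were called, and for 2 in Lepr-cKO, Mapk3 and Adcy1, both higher, where 2.09% were. With 1 library left out the first count was 8 without WT-178Sni or SLRKO2wpc123i, 10 without WT-173Snc, 11 without WT-170Sni, 29 without SLRKO2wpc144i and 12 to 18 otherwise, and the second from 0 to 3. The largest rises at 2 wpc were in Btc, an EGF family ligand (44.5 against 0.958 CPM, log2 fold change 5.52 ± 0.50, SE), Ngfr, a neurotrophin receptor of repair Schwann cells (351 against 61.1 CPM, 2.52 ± 0.37), and Grb7, an adaptor that binds ERBB2 (3.28 against 0.63 CPM, 2.36 ± 0.47). The largest falls were in Adcy1, an adenylyl cyclase (41.1 against 640.2 CPM, -3.96 ± 0.25), Erbb4, a further neuregulin receptor (1.56 against 18.0 CPM, -3.51 ± 0.30), and Tgfa, an EGF receptor ligand (19.5 against 187 CPM, -3.26 ± 0.18). At 4 wpc the largest rises were Btc (3.53 ± 0.47), Grb7 (3.34 ± 0.50) and Spry1, a feedback inhibitor of ERK signaling (2.31 ± 0.24), and large falls were in Timp3, an inhibitor of ADAM17 (113 against 1292 CPM, -3.52 ± 0.40) and Adcy1 (-3.47 ± 0.26).

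**Figure D5:**
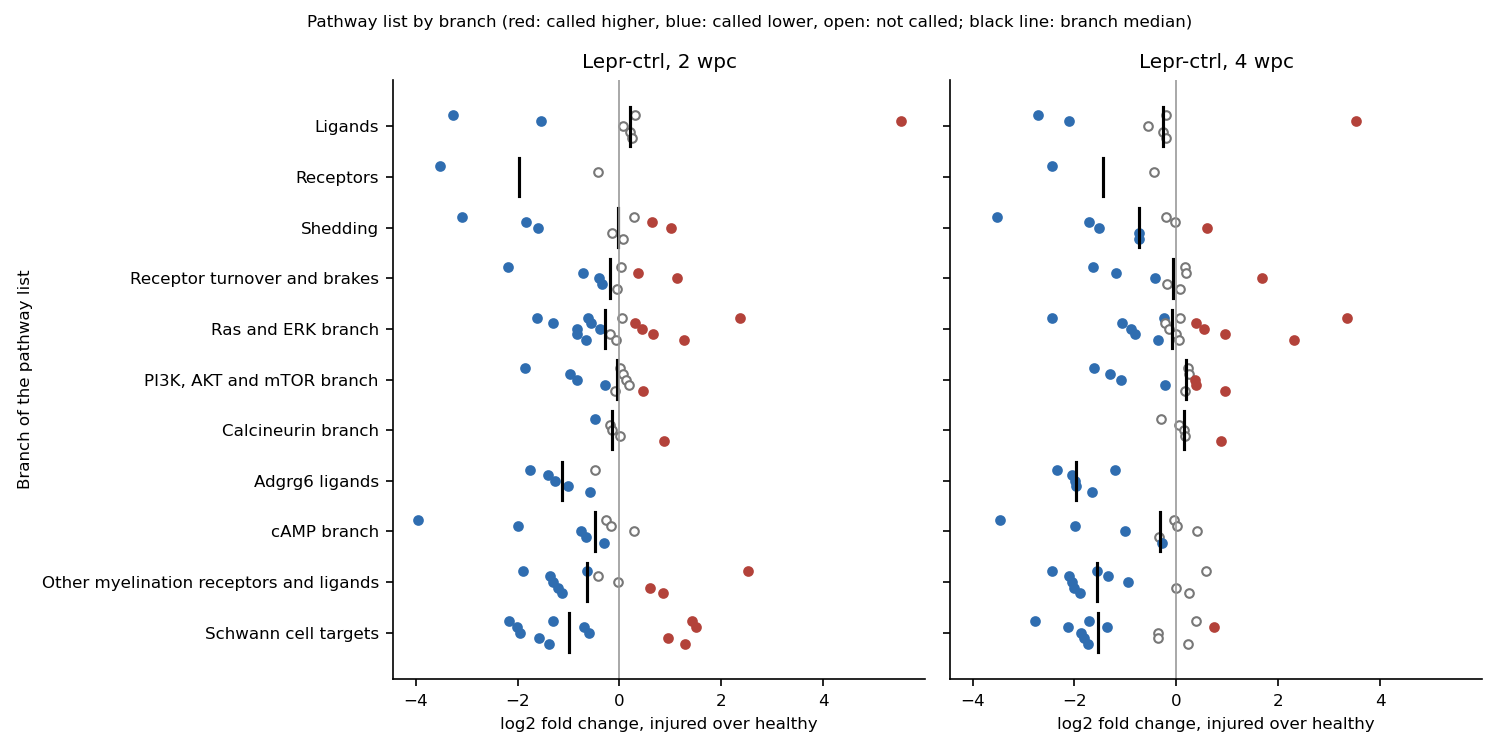
Log2 fold change of injured over healthy Lepr-ctrl nerve (x axis) for the 93 tested genes of the pathway list, 1 point a gene, by branch (y axis), at 2 wpc (left) and 4 wpc (right); red and blue points passed an adjusted p of 0.05 as higher or lower, open points did not, and black lines are branch medians. All called genes among the ligands of ADGRG6 are lower, 5 of 6 at 2 wpc and 6 of 6 at 4 wpc.

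The counts by branch in Lepr-ctrl are to be read against all genes, of which 30.2% were called lower and 33.7% higher at 2 wpc and 31.2% and 32.4% at 4 wpc. Of the 6 ligand genes of ADGRG6 (laminin-211 chains, collagen IV chains and Prnp), 5 fell at 2 wpc and 6 at 4 wpc in Lepr-ctrl, among them Col4a1 and Col4a2. Of 8 cyclic AMP genes 5 and 4 fell and 0 rose. Among 11 other myelination receptors and ligands 6 fell and 3 rose at 2 wpc, and 8 fell and 0 rose at 4 wpc, with the insulin-like growth factor receptor Igf1r lower at both (-1.31 ± 0.14 and -1.55 ± 0.15).

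Against the same shares, of 7 further ligands 2 fell and 1 rose at each time (Tgfa at 4 wpc -2.72 ± 0.19), and of 2 further receptors 1 fell, Erbb4 (at 4 wpc -2.44 ± 0.32). Of 8 shedding genes 3 fell and 2 rose at 2 wpc and 5 fell and 1 rose at 4 wpc, and Adam10, another protease of ERBB ligands, stood at 312 against 1115 CPM (-1.84 ± 0.18) and 284 against 930.2 CPM (-1.71 ± 0.19). Of 8 receptor brakes 4 fell and 2 rose, then 3 fell and 1 rose; Errfi1, an inhibitor of ERBB kinases, fell at 2 wpc (-2.18 ± 0.24) and Cblb, a ubiquitin ligase, rose at 4 wpc (1.68 ± 0.22). In the Ras and ERK branch of 16 genes 8 fell and 5 rose at 2 wpc and 6 fell and 5 rose at 4 wpc, with Mapk3, which encodes ERK1, lower at both (-1.31 ± 0.10 and -1.06 ± 0.10). Of 10 PI3K, AKT and mTOR genes 4 fell and 1 rose, then 4 fell and 3 rose, with Pik3r1 lower at 2 wpc (-1.85 ± 0.19) and Mtor at 4 wpc (-1.08 ± 0.11). The calcineurin branch of 5 had 1 fall and 1 rise at 2 wpc and 1 rise at 4 wpc, the rise being Nfatc4 at both (0.87 ± 0.19 and 0.87 ± 0.20). Of 12 Schwann cell target genes 8 fell and 4 rose at 2 wpc and 7 fell and 1 rose at 4 wpc. Sox10 stands both among these targets and among the Schwann cell markers.

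Between genotypes, 0 of the 93 listed genes passed with edgeR or with DESeq2 in injured nerves at 2 wpc, in healthy nerves at either time, or in the test of the injury response at either time. Listed genes with an unadjusted p under 0.05 (edgeR) numbered 7 in injured nerves at 2 wpc (6.44% of all genes). In healthy nerves they numbered 1 at 2 wpc (1.2%) and 0 at 4 wpc (1.88%). In the test of the injury response they numbered 4 at 2 wpc (4.32%) and 28 of 93 at 4 wpc (10.9%).

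Over the 39 libraries, the genes whose log2 CPM followed each member most closely by Pearson correlation were Golga1 for Nrg1 (r = 0.892), Sppl2b for Erbb2 (0.932), Adamts20 for Erbb3 (0.918), Myh14 for Rnf41 (0.971), Rnf145 for Adam17 (0.909), Sort1 for Bace1 (0.985) and Arhgef26 for Adgrg6 (0.98). Next came Ccdc157 and Tgfbr3l, Kdm6b and Npdc1, Prdm16 and Bcl7a, Clip2 and Tkt, Ick and Pcdhb22, Map1a and Dnajc18, and Il1rap and Atp2c1, in the same order of members. These libraries share mice and the large injury response, so the values describe likeness only.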

How the data were processed

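Per the study's methods, the authors sequenced total RNA of distal sciatic nerve endoneurium (TruSeq v2 kit, single 50-base reads), aligned them to GRCm38 with STAR 2.5 and assigned them to Ensembl genes with featureCounts 1.5.0-p1. What the authors deposited is 1 table of raw, whole-number counts for each library. The kit does not mark strand, and the strand and multi-mapping settings of the counting are not given in the sources used here. Groups came from the sample labels.

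From the deposited counts, genes were filtered with filterByExpr by group (minimum count 10, minimum total 15), scaled by TMM factors and tested with edgeR's quasi-likelihood F test in 1 fit of all 39 libraries, adjusted by Benjamini-Hochberg over the 18442 genes tested; a gene was called at an adjusted p under 0.05. Tools and versions are edgeR 4.0.16 and, as an alternative, DESeq2 1.42.0. CPM values use TMM-scaled library sizes; SE and 95% intervals are of the log2 fold change. The fit was tested on simulated counts first. Depth was 10905806 to 45016322 counts a library, and intervals cover the spread between libraries.

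The genes, the pathway list and the marker lists were chosen with earlier results of these data known. In the list, the 3 genes with the largest rise and fall, and the gene with the lowest adjusted p of each branch, were to be named per main comparison; some items this rule covers are not reported here. Nerves with the same animal number come from the same mouse: after removing each group's mean, the 2 nerves of a mouse correlated at -0.116 to 0.567, above 0.1 in 14 of 17 pairs. Alternatives were another normalization, no filter and a stricter one, DESeq2, a sex term, mitochondrial genes left out, the compared groups only, the animal as a replicate block, the study's rule of an absolute log2 fold change over 1, and each library left out in turn; upper-quartile factors for the genotype comparisons at 4 wpc and the genotype difference in the change between times were added after seeing the data. The labels hold 4 to 6 nerves a group. No 2 libraries were duplicates.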

Additional observations from a re-analysis of the deposited data

Results flagged for a closer look

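In 3 of 56 groups of 4 to 6 libraries tested over the members, 1 library lay farther from the rest than Dixon's 95% critical value; chance gives about 1 in 20 groups. The healthy Lepr-cKO nerve KO-169Snc at 4 wpc had 322 CPM of Erbb3, against 464 to 513 in the other nerves of its group. The injured Lepr-ctrl nerve SLRKO2wpc144i at 2 wpc had 71.8 CPM of Adam17, against 121 to 134 in the others. The same nerve was also the lowest of its group for Erbb3 (293 CPM), Rnf41 (37.0) and Bace1 (14.5), each short of the critical value, so its low level was not particular to Adam17. The healthy Lepr-ctrl nerve WT-168Snc at 4 wpc had 51.9 CPM of Bace1, against 69.8 to 75.7 in the others.

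The injury response in Lepr-ctrl differed between 2 and 4 wpc for 4 members by the interaction test in edgeR. The log2 response at 4 wpc minus that at 2 wpc was -1.03 for Erbb2, -0.99 for Erbb3, -0.84 for Adam17 and -0.95 for Adgrg6. For Erbb2 the healthy Lepr-ctrl nerves were also higher at 4 wpc, so its value is not a change in injured nerves alone. The nerves of each time came from different mice, so time and cohort cannot be told apart.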

How the results depend on the processing

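No member turned its direction while called. Over all results and settings other than left-out libraries, 638 of 646 stayed on their side of the threshold, 5 lost a call and 3 gained one; 16 of the 638, none of them called, changed sign. The number of members differing between genotypes in injured nerves at 4 wpc, 1 as reported, was 2 with at least 10 counts in every library, 3 with DESeq2, 0 with the compared groups only and 0 under the study's rule of an absolute log2 fold change over 1, and 0 to 5 with 1 library left out (0 without WT-170Sni, WT-171Sni, WT-178Sni, KO-169Sni or KO-176Sni, 3 without WT-173Sni, 5 without KO-177Sni). Upper-quartile factors, chosen after seeing the data, left it at 1. Over all genes this comparison gave 241 calls (1.31% of 18442) and 760 with DESeq2 (2.01% of 37867, a wider set of genes). It gave 85 with no filter, 307 with at least 10 counts in every library (2.38%), 113 with a sex term and 0 with the compared groups only. With 1 library left out it gave 7 without WT-171Sni to 466 without WT-173Sni (2.53%) and 2313 without KO-177Sni (12.5%). The study's rule gave 2, 2, 3 and 3 members for the injury responses of Lepr-ctrl and Lepr-cKO at 2 wpc and Lepr-ctrl and Lepr-cKO at 4 wpc, where it held for 34.1%, 34.3%, 35.9% and 27.6% of all genes, and 1 for the change of the response in Lepr-ctrl (4.42%). The Adam17 call in Lepr-ctrl at 2 wpc was lost with no filter (adjusted p = 0.068) and with the compared groups only (0.0614), and the Erbb2 call in Lepr-cKO at 4 wpc with no filter (0.058). With the animal as a replicate block the injury counts were 6, 6, 6 and 4, against 6, 6, 6 and 5 in the main fit. The change in Lepr-ctrl was 4, and the other blocked counts were 0. Apart from Erbb2 in Lepr-cKO at 4 wpc the block changed no call of a member. The shares of all genes called with the block are not given here, so these counts show only whether the members' calls held. The causes of these changes were not tested. Over the wider list, the count changed in Lepr-ctrl between times was 18, 10 with no filter, and 8 (without WT-178Sni or SLRKO2wpc123i) to 29 (without SLRKO2wpc144i) with 1 library left out. Of the 21 genes most like a member, 20 were shared when the prior count was 0.5. Depth limits Nrg1 most, with 0 to 133 counts a library, and the injured Lepr-ctrl nerves at 4 wpc were the shallowest group.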
